A study of Mus musculus with 8 samples.

Results

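The 37 genes described here repair DNA or signal its damage. They were chosen by name, with earlier results of these data known. Of these, 19 belong to homologous recombination and the Fanconi anaemia pathway and 4 are checkpoint kinases. The others are the mismatch repair gene Msh6, 7 base excision repair genes and 6 genes of end joining. All 37 were found by symbol among the 24411 genes listed, and all 37 had enough counts to be tested. The cells were A223, a mouse line named as squamous cell carcinoma, either parental or with a knockdown (KD) of PRDX6, a peroxiredoxin that reduces hydroperoxides. The 4 groups were parental and KD cells with DMSO at 0 h, and parental and KD cells with 100 nM largazole at 18 h, with 2 libraries of polyadenylated RNA each. Largazole inhibits class I histone deacetylases. Drug and time changed together between the groups, so their effects cannot be told apart. No library of cells carrying a control construct was analysed here, and no source used here says whether replicates were separate cultures, so p-values measure only the spread between these libraries.

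Homologous recombination repairs a broken chromosome by copying the sister chromatid. BRCA1 with its partner BARD1 promotes trimming of the broken ends, and PALB2 bridges BRCA1 to BRCA2, which acts on the trimmed single-stranded DNA. The Fanconi proteins recognise and unhook crosslinks between the strands, and hand the resulting break to the same machinery. End joining instead ligates broken ends directly through the Ku proteins, in any phase of the cell cycle. Base excision repair removes single damaged bases, and mismatch repair corrects copying errors. ATM and ATR sense breaks and stalled forks, and pass the signal to the effector kinases CHEK2 and CHEK1.

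The sequences upstream of the start sites were searched because many recombination genes fell together. RefSeq windows of 300 bases on GRCm38.p6, from 250 bases before to 50 after the annotated start, matched 32 of the 37 genes by symbol. The windows of Rad54b, Xrcc2, Exo1, Fancd2 and Prkdc were not used here. The letters TTGGCGC were searched on both strands, with TTCCCGC as another form, TTCGCGC as a further form and TTGCCGC as the last. They resemble the binding site of E2F factors, and a base may belong to matches of more than 1 motif. At least 1 of these occurred in 11 of 15 windows of recombination and Fanconi genes (73.3%) and in 5 of 13 windows of mismatch, base excision and end joining genes (38.5%). Within these 13, it occurred in 1 of 7 base excision windows, in 3 of 5 end joining windows and in that of Msh6. It also occurred in 3 of 4 windows of checkpoint kinases. The share was 9.69% over 27025 windows of all genes and 17.3% over the 9523 windows of genes tested. CCAAT occurred on either strand in 66.7% of recombination and Fanconi windows and in 39.5% of windows of genes tested, and TTTGAA in 6.67% and 11.4%. A match describes letters and is not evidence of binding. The 4 upstream spans of 250 bases shown here, each read 5′ to 3′ on the gene's strand, belong to a pair of recombination genes that fell, to the base excision gene with the largest fall and to the end joining gene that rose with the knockdown. Capitals mark an E2F-type match. The Brca2 span lies at chr5:150522371-150522620 on the plus strand and the Fignl1 span at chr11:11808963-11809212 on the minus strand. The Neil3 span lies at chr8:53639066-53639315 on the minus strand and the Xrcc5 span at chr1:72307171-72307420 on the plus strand. In the annotation these spans hold no exon.
Brca2: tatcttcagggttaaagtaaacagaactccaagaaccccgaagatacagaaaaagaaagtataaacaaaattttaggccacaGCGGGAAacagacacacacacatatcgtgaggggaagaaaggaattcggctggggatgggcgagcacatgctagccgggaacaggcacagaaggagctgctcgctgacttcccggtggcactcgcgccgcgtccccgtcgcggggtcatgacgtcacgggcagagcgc
Fignl1: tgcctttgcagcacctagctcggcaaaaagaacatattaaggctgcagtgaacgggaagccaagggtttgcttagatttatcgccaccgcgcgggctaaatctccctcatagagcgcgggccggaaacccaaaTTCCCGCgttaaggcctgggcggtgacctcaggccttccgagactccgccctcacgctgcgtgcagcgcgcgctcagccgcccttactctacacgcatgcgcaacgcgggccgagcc
Neil3: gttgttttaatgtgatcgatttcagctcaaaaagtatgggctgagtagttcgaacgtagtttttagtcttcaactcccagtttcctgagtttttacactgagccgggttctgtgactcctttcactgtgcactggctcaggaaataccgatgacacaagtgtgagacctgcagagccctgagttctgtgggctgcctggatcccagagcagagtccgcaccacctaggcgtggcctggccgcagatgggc
Xrcc5: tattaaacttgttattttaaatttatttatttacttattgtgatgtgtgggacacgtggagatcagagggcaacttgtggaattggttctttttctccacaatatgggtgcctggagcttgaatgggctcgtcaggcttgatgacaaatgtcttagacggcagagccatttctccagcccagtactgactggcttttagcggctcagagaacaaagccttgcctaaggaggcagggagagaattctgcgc
Brca2 held 1 match, which starts at position -168 from the start site, and Fignl1 held 1 at position -117 in the span shown. Neil3 and Xrcc5 held none in the window. Palb2, Xrcc3, Rad54l and Fanca, which fell with largazole in both genotypes, also held none. Rad51c, which did not pass in any comparison, and Xrcc4, which rose in KD cells, held 1 each. The relation of matches to the changes was not tested.

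Libraries held 13020492 to 15613216 estimated counts, and single members held 17 to 1908 counts per library. Levels are given as CPM, counts scaled to library size with TMM. Prdx6 itself stood at 233 to 297 CPM in the 4 parental libraries and at 64.9 to 86.6 CPM in the 4 KD libraries. Rn45s, an abundant ribosomal RNA precursor, ranged from 742 to 23915 CPM, both in the KD largazole group. Of the epithelial markers, Trp63 and Epcam had 0 counts in all DMSO libraries, and Krt5, Krt14 and Cdh1 were at most 0.222 CPM there. Krt8 stood at 1006 to 2267 CPM. The fibroblast genes Pdgfra and Col1a1 stood at 228 to 548 and 1177 to 1925 CPM. Apart from Krt8 and Krt18, the epithelial markers were thus close to absent in DMSO, among them Krt5, Krt14 and Trp63 of the labelled squamous cell type. With largazole Krt14 stood at 1.48 to 3.20 CPM, Epcam at 2.45 to 3.97 CPM and Trp63 at 0.395 to 0.935 CPM. These genes reached the count filter only through largazole libraries, so the direction of their change was fixed by being tested. Krt18 rose and Krt8 fell in each genotype. All 7 epithelial markers together summed to 2003 to 2398 CPM in DMSO and 1167 to 1608 CPM in largazole libraries, mostly Krt8. The leukocyte gene Ptprc had 0 counts in DMSO and 0.539 to 0.857 CPM with largazole, where the 5 leukocyte markers summed to at most 1.12 CPM and Cd3e and Adgre1 stayed at 0. The part of these markers in the results was not tested. The 2 libraries of KD largazole differed more from each other than those of other groups: their log2 differences over genes had an SD of 0.359, against 0.194 to 0.218 elsewhere. Where a value is given without a library, a single library was left out of the fit.

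Most recombination and Fanconi genes fell with largazole in parental and in KD cells, while of the 6 end joining genes 1 fell and 1 rose in each. In parental cells 17 of 19 recombination and Fanconi genes fell and none rose at an adjusted p under 0.05 (edgeR's quasi-likelihood test), with a median log2 fold change of -0.99. Of the 14 mismatch, base excision and end joining genes 7 fell and 1 rose, with a median of -0.25. Over all genes tested 49.6% passed, 22.7% lower and 26.9% higher, with a median of 0.03. In KD cells 18 of 19 recombination and Fanconi genes fell, with a median of -1.56, and of the other 14 genes 8 fell and 1 rose, with a median of -0.56. There 48.2% of all genes tested passed, 23.2% lower and 25.0% higher, with a median of 0.01. Altogether 27 of the 37 genes fell with largazole in both genotypes.

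Genes of cell division moved in the same direction. Of 16 proliferation markers 13 fell and 1, E2f2, rose in parental cells (median -1.13), and 15 fell and E2f2 rose in KD cells (median -1.37). Their levels summed to 3805 and 3772 CPM with DMSO and 1738 and 1696 CPM with largazole in parental cells, and to 3089 and 3255 CPM with DMSO and 1124 and 1177 CPM with largazole in KD cells. The part of these genes in the fall of the repair genes was not tested. In RNA from whole cultures, fewer cells in a state that expresses a gene and less of its RNA per cell cannot be told apart.

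**Figure D1:**
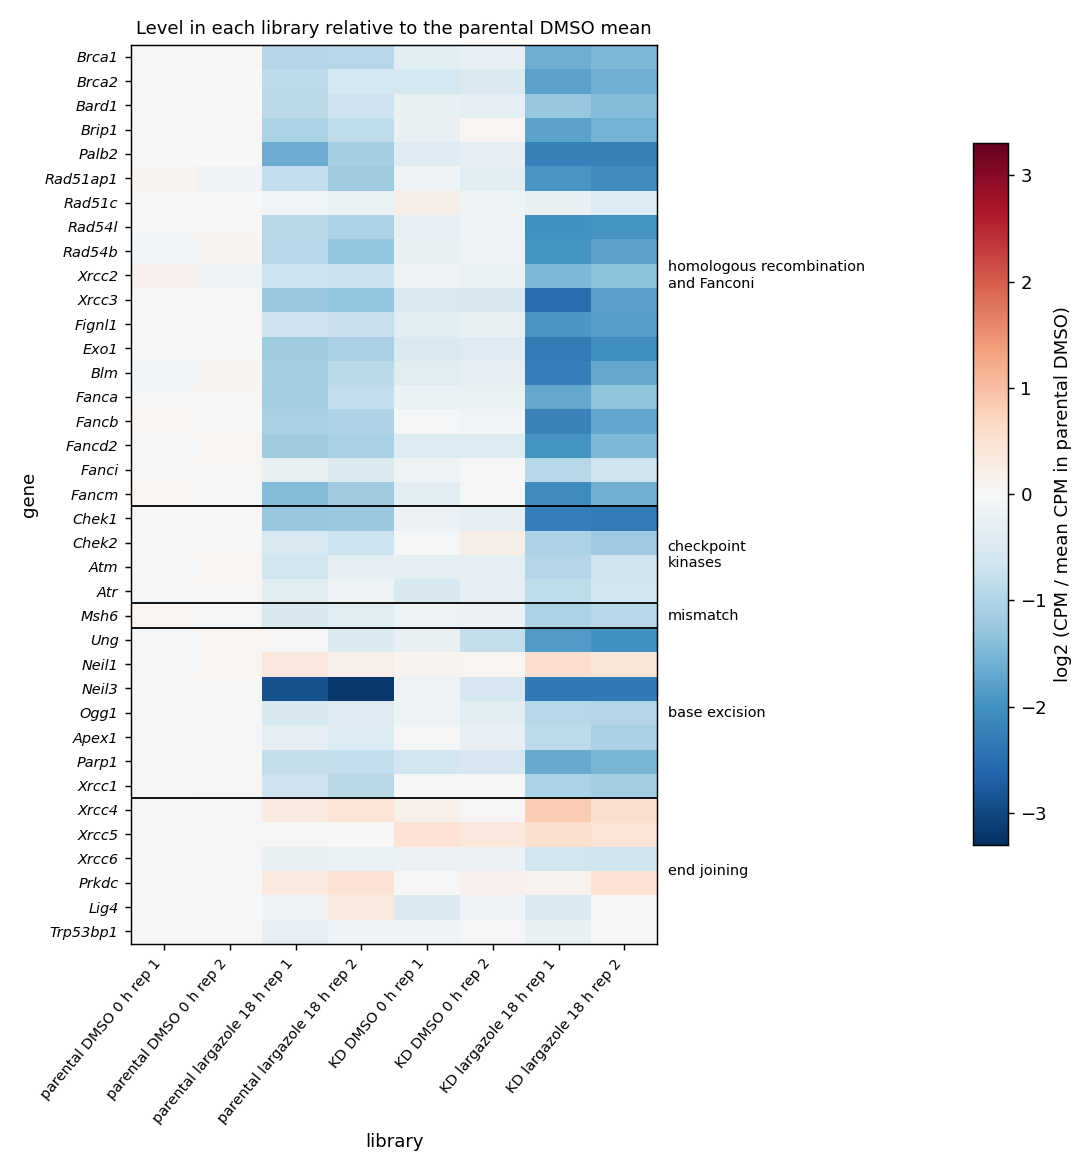
Level of each of the 37 genes (rows, grouped by role) in each of the 8 libraries (columns), as log2 of CPM over the mean CPM of the parental DMSO libraries. Blue marks lower and red marks higher levels: the KD largazole columns are the darkest blue for most recombination genes, Neil3 is darkest in parental largazole, and Xrcc4 and Xrcc5 are red in KD largazole.

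The genes that start recombination fell with largazole in both genotypes. Brca1 stood at 90.7 and 94.5 CPM with DMSO and 47.8 and 48.1 CPM with largazole in parental cells, and at 72.7 and 76.5 CPM with DMSO and 30.5 and 32.9 CPM with largazole in KD cells. The 4 groups did not overlap, and KD largazole was lowest. The log2 fold change with largazole was -0.95 ± 0.09 in parental cells (SE, adjusted p = 1.74e-05) against -1.23 ± 0.09 in KD cells (adjusted p = 3.99e-06). Palb2, the bridge between BRCA1 and BRCA2, went from 15.2 and 14.8 CPM in parental DMSO to 4.84 and 6.92 CPM with largazole, and from 11.1 and 12.2 CPM in KD DMSO to 3.20 and 3.17 CPM. Its log2 fold changes were -1.35 ± 0.18 in parental cells (adjusted p = 0.000223) and, in the KD, -1.87 ± 0.21 (adjusted p = 6.88e-05), the largest falls of the role in each genotype. Brca2 stood at 28 and 28.5 CPM with DMSO and 15.5 and 18.7 CPM with largazole in parental cells, and at 18.8 and 20.3 CPM with DMSO and 8.34 and 9.44 CPM with largazole in KD cells. Parental DMSO was highest and KD largazole lowest, with the other groups close together between them. Bard1 changed by -0.77 in parental and -1.08 in KD cells, and the helicase gene Brip1 by -0.94 and -1.56.

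Genes that assist strand exchange and genes that process recombination intermediates also fell with largazole in both genotypes, with 1 exception. Rad54l, which encodes a DNA motor protein, stood at 24.5 and 25.6 CPM with DMSO and 13.2 and 12.1 CPM with largazole in parental cells, and at 20.8 and 22.6 CPM with DMSO and 6.24 and 6.41 CPM with largazole in KD cells. Its log2 fold change with largazole was -0.99 ± 0.13 in parental cells (adjusted p = 0.000147) against -1.78 ± 0.14 in KD cells (adjusted p = 6.48e-06). Fignl1, which encodes an ATPase of recombination, stood at 77.1 and 79.0 CPM with DMSO and 48.8 and 46.1 CPM with largazole in parental cells, and at 61.1 and 65.4 CPM with DMSO and 20.8 and 22.1 CPM with largazole in KD cells. Neither gene's groups overlapped. Rad51ap1, Rad54b, Xrcc2, Xrcc3, the end-resecting nuclease gene Exo1 and the helicase gene Blm also fell in both genotypes. Their log2 fold changes ran from -0.72 (Xrcc2) to -1.25 (Xrcc3) in parental and from -1.25 (Xrcc2) to -1.75 (Rad51ap1) in KD cells. Rad51c was the exception. It stood between 6 and 9.42 CPM in all 8 libraries, and its log2 fold changes of -0.16 ± 0.18 and -0.40 ± 0.19 did not pass (adjusted p = 0.496 and 0.103).

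Among the Fanconi genes, Fanca, Fancb, Fancd2 and Fancm fell in both genotypes. Fancb, a subunit of the core ubiquitin ligase, stood at 18.0 and 16.5 CPM with DMSO and 8.24 and 8.44 CPM with largazole in parental cells, and at 16.5 and 16.3 CPM with DMSO and 3.74 and 5.26 CPM with largazole in KD cells. Its DMSO groups lay close together, and both largazole groups lay below them. Its log2 fold change was -1.05 ± 0.16 in parental cells (adjusted p = 0.000478) against -1.85 ± 0.18 in KD cells (adjusted p = 2.48e-05). Fancm, a DNA translocase, had changes of -1.30 and -1.57. Fancd2 and Fanci are the pair that the core ligase ubiquitinates. Fancd2 had changes of -1.11 and -1.25, while Fanci passed in KD cells only, at -0.70 ± 0.14 (adjusted p = 0.0021) against -0.35 ± 0.13 in parental cells (adjusted p = 0.051). The difference of -0.35 ± 0.19 between these did not pass (adjusted p = 0.677).

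**Figure D2:**
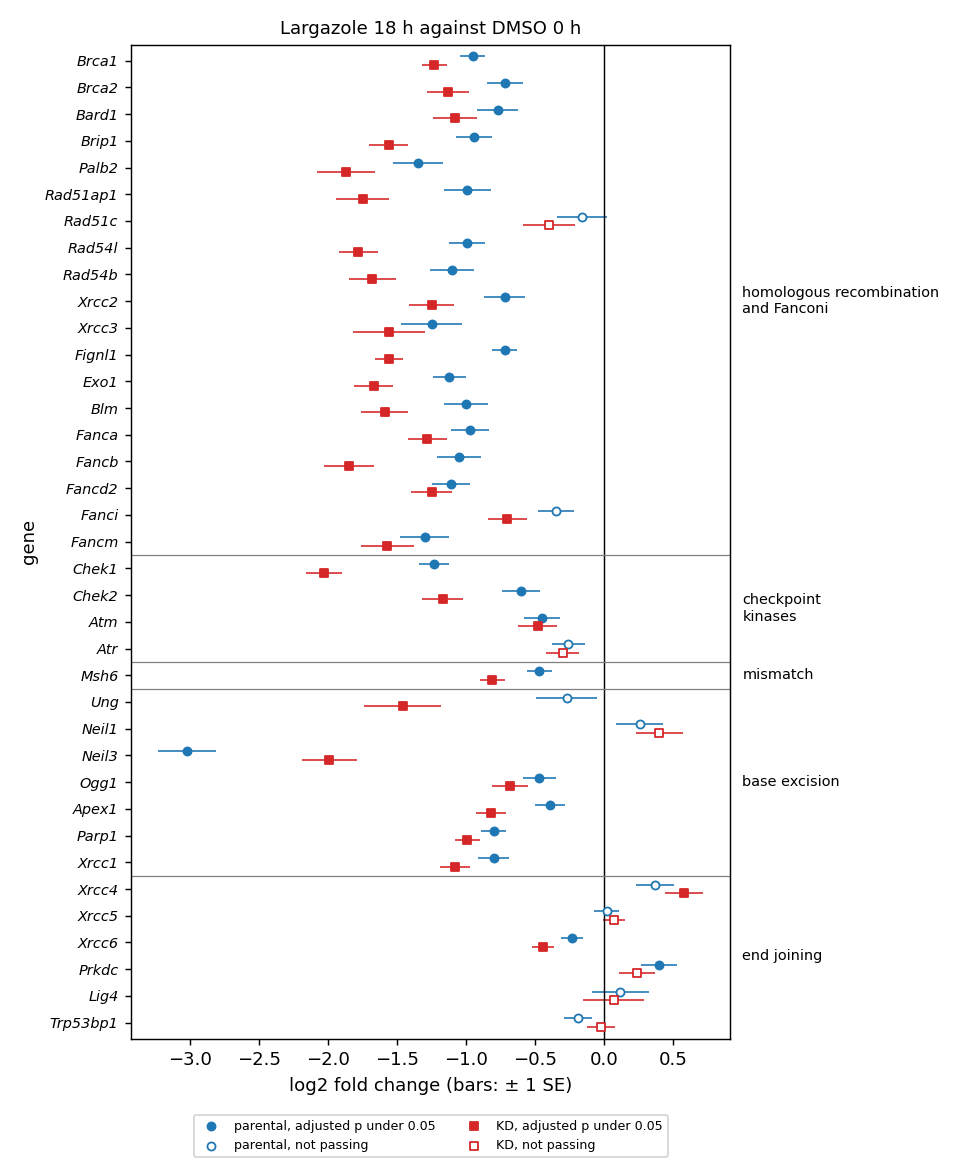
Log2 fold change with largazole of each of the 37 genes in parental and in KD cells, with bars of 1 SE, filled symbols where the adjusted p was under 0.05. Recombination and Fanconi genes lie left of 0 and reach -1.87, Neil3 reaches -3.02 in parental cells, and end joining genes lie around 0.

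Of the kinases, Chek1 had the largest change. Chek1 stood at 35.1 and 35.8 CPM with DMSO and 14.9 and 15.3 CPM with largazole in parental cells, and at 31.3 and 28.7 CPM with DMSO and 7.48 and 7.22 CPM with largazole in KD cells. The groups did not overlap, and KD largazole held 20.7% of the parental DMSO mean. The log2 fold change with largazole was -1.23 ± 0.11 in parental cells (adjusted p = 1.82e-05) against -2.03 ± 0.13 in KD cells (adjusted p = 1.52e-06). Chek2 stood at 23.4 and 23.5 CPM with DMSO and 16.5 and 14.4 CPM with largazole in parental cells, and at 22.5 and 26.9 CPM with DMSO and 11.7 and 10.2 CPM with largazole in KD cells. Its log2 fold changes of -0.60 in parental and -1.17 in KD cells both passed. Atm, the kinase that responds to breaks, went from 43.8 and 47.8 CPM to 30 and 37 CPM in parental cells and from 37 and 36.9 CPM to 23.6 and 29.2 CPM in KD cells. Its log2 fold changes were -0.45 (adjusted p = 0.0182) and -0.48 (adjusted p = 0.0157). Without parental DMSO replicate 2 or parental largazole replicate 1 its adjusted p in parental cells was 0.122 or 0.152, and without KD DMSO replicate 1 or 2 its adjusted p in KD cells was 0.0649 or 0.0714. Atr, the kinase that responds to stalled forks, did not pass for largazole, at -0.26 ± 0.12 (adjusted p = 0.0929) and -0.30 ± 0.12 (adjusted p = 0.0645). Left without either KD largazole library, the parental comparison of Atr passed (adjusted p = 0.0266 and 0.0218), and left without KD largazole replicate 2 the KD comparison passed (adjusted p = 0.0145).

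Msh6, which recognises mismatches, fell in both genotypes. It stood at 109 and 101 CPM with DMSO and 72.9 and 79.2 CPM with largazole in parental cells, and at 92.8 and 92.6 CPM with DMSO and 51.2 and 54.4 CPM with largazole in KD cells. The log2 fold change was -0.47 ± 0.09 in parental cells (adjusted p = 0.00144) against -0.81 ± 0.09 in KD cells (adjusted p = 5.22e-05).

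Base excision genes were split, with the glycosylase genes differing most among themselves. In parental cells 5 of 7 fell and in KD cells 6 of 7. Neil3, a glycosylase gene for oxidised bases and crosslinks, stood at 16.9 and 16.9 CPM with DMSO and 2.32 and 1.85 CPM with largazole in parental cells, and at 15 and 11.6 CPM with DMSO and 3.35 and 3.37 CPM with largazole in KD cells. Its largazole libraries held 28 to 50 counts, against 158 to 250 in the DMSO libraries. The log2 fold change was -3.02 ± 0.21 (adjusted p = 3.11e-06) in parental cells, the largest of the 37 genes, and -1.99 ± 0.20 (adjusted p = 3.39e-05) in KD cells. Ung removes uracil from DNA. It stood at 8.43 and 9.31 CPM with DMSO and 8.44 and 6.33 CPM with largazole in parental cells, and at 7.51 and 5.16 CPM with DMSO and 2.42 and 2.23 CPM with largazole in KD cells. Only the KD largazole group lay apart, with 31 and 33 counts, and Ung passed in KD cells at -1.46 ± 0.28 (adjusted p = 0.00189) but not in parental cells at -0.27 ± 0.22 (adjusted p = 0.331). Neil1, a glycosylase gene for oxidised bases, went the other way without passing, at 0.26 ± 0.17 (adjusted p = 0.247) and 0.40 ± 0.17 (adjusted p = 0.0783). It stood at 5.99 and 6.61 CPM in parental DMSO and at 9.20 and 8.36 CPM in KD largazole.

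The remaining base excision genes also fell. Parp1, the sensor of strand breaks, stood at 129 and 129 CPM with DMSO and 74.8 and 73.5 CPM with largazole in parental cells, and at 83.7 and 87.3 CPM with DMSO and 40.4 and 45.7 CPM with largazole in KD cells. Its log2 fold changes with largazole were -0.80 (adjusted p = 5.03e-05) and -0.99 (adjusted p = 1.52e-05). Xrcc1, the scaffold of the pathway, stood at 48.9 and 50.6 CPM with DMSO and 30.7 and 26.4 CPM with largazole in parental cells, and at 49.1 and 49.2 CPM with DMSO and 23.9 and 22.5 CPM with largazole in KD cells. Its DMSO groups were level with each other, and its log2 fold changes with largazole, -0.80 and -1.08, both passed. Ogg1, the glycosylase gene for oxidised guanine, and Apex1, the endonuclease gene for abasic sites, fell in both genotypes. Ogg1 changed by -0.47 and -0.68 and Apex1 by -0.39 and -0.82. In parental cells the call of Ogg1 was lost when parental DMSO replicate 1 or parental largazole replicate 1 was left out (adjusted p = 0.0566 and 0.07). That of Apex1 was lost with parental DMSO replicate 1 or parental largazole replicate 2 left out (adjusted p = 0.0796 and 0.0914).

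End joining genes stayed within a narrow range, from -0.44 to 0.58 across both largazole comparisons. Xrcc6 and Xrcc5 encode the Ku heterodimer. Xrcc6 stood at 85.0 and 82.8 CPM with DMSO and 71.0 and 71.7 CPM with largazole in parental cells, and at 73.8 and 73.6 CPM with DMSO and 55.3 and 53.5 CPM with largazole in KD cells. Its log2 fold change was -0.23 (adjusted p = 0.0322) in parental cells against -0.44 (adjusted p = 0.00144) in KD cells. Xrcc5 stood at 59.5 and 62.0 CPM with DMSO and 61.8 and 61.2 CPM with largazole in parental cells, and at 83.8 and 78.3 CPM with DMSO and 87.7 and 82.3 CPM with largazole in KD cells. Its libraries divided by genotype and not by drug, and its log2 fold changes with largazole were 0.02 ± 0.09 and 0.07 ± 0.08. Prkdc, the kinase that Ku recruits, rose in parental cells from 29.4 and 29.1 CPM to 36.5 and 40.7 CPM, by 0.40 ± 0.13 (adjusted p = 0.0298), and did not pass in KD cells at 0.24 ± 0.13 (adjusted p = 0.165). Xrcc4, the partner of the ligase, rose in KD cells from 16.9 and 15.5 CPM to 27.0 and 21.7 CPM, by 0.58 ± 0.14 (adjusted p = 0.0069), and did not pass in parental cells at 0.37 ± 0.14 (adjusted p = 0.0582). The ligase gene Lig4 stood at 9.48 to 16.6 CPM and Trp53bp1, which limits end trimming, at 62.1 to 74.6 CPM over the 8 libraries, and neither passed in any comparison.

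Several of these smaller changes in parental cells rested on single libraries. The median of mismatch, base excision and end joining genes in parental cells lay between -0.32 and -0.24 whichever library was left out. It was -0.25 with all libraries. Fewer of these genes, and fewer of all genes tested, passed without any 1 parental library. Xrcc6 and Prkdc missed the threshold in parental cells without any 1 of the 4 parental libraries (adjusted p = 0.0561 to 0.206), and also without KD DMSO replicate 1 (Xrcc6, adjusted p = 0.0524) or KD DMSO replicate 2 (Prkdc, adjusted p = 0.0533). Xrcc4 missed it in KD cells without KD DMSO replicate 2 (adjusted p = 0.0519), and Prkdc passed there without KD largazole replicate 1 (adjusted p = 0.01). Without either KD largazole library, Fanci, Xrcc4 and Trp53bp1 passed in parental cells (adjusted p = 0.00778 to 0.0388). The 17 recombination and Fanconi genes that fell in parental cells passed whichever library was left out.

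Levels per length differed widely among the genes. Per kb of coding exon, parental DMSO levels ran from 1.91 CPM for Rad51c to 64.2 CPM for Apex1, with a median of 9.28 CPM over tested genes with a length. Parp1 at 33.3 CPM, Xrcc6 at 25.3 CPM, Fignl1 at 25.1 CPM, Msh6 at 24.8 CPM and Xrcc5 at 23.8 CPM per kb followed Apex1. Brca1 stood at 14.1 CPM and Brca2 at 2.63 CPM per kb.

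**Figure D3:**
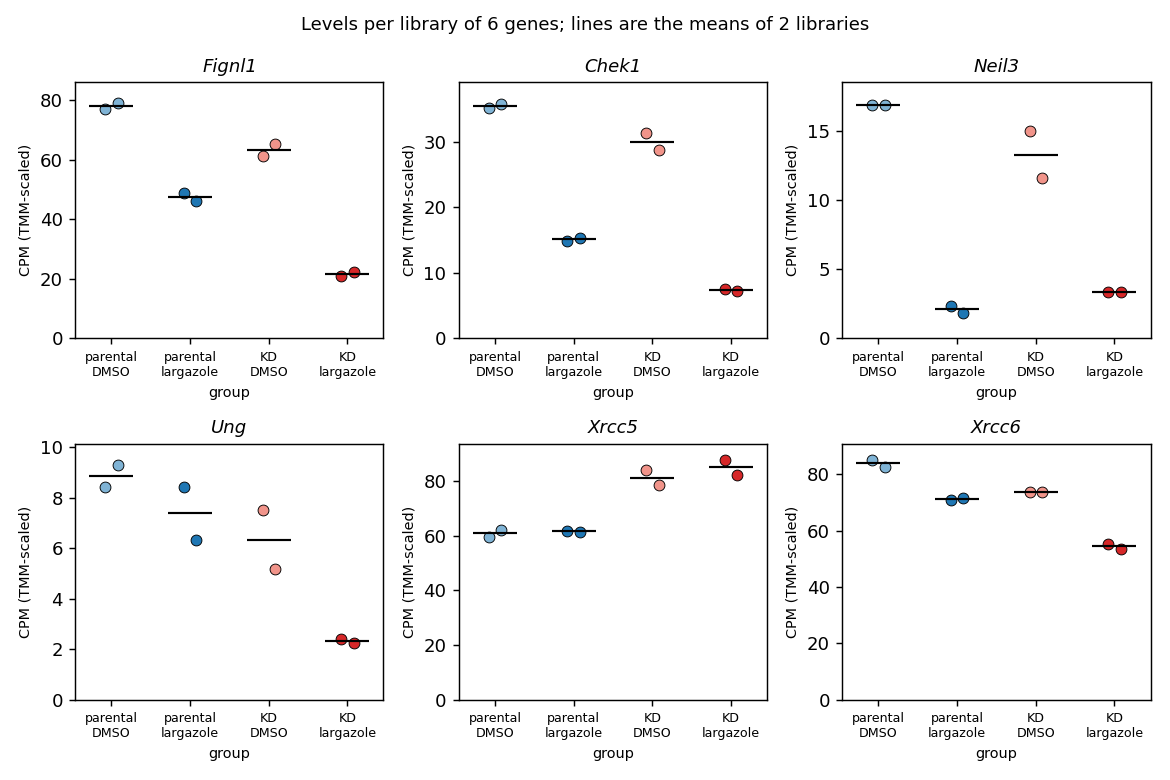
CPM in each of the 8 libraries for Fignl1, Chek1, Neil3, Ung, Xrcc5 and Xrcc6, 1 point per library, with a line at each group's mean. Chek1 and Fignl1 are lowest in KD largazole, Neil3 is lowest in parental largazole, Ung is low in KD largazole alone, and Xrcc5 divides by genotype.

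Without largazole few of these genes passed for the knockdown. Of the 37, 31 had a negative log2 fold change, against 6254 of the 12517 genes tested. By edgeR 13 had an unadjusted p under 0.05, against 3104 of all genes tested. In DMSO 5 of 37 were lower and 1 was higher in KD than in parental cells, where 11.0% of all genes tested passed, 4.02% lower and 7.01% higher. The recombination genes Brca1 (-0.31 ± 0.09, adjusted p = 0.0432), Brca2 (-0.53 ± 0.13, adjusted p = 0.0283) and Exo1 (-0.48 ± 0.12, adjusted p = 0.0311) were lower. So were the kinase gene Atr (-0.42 ± 0.12, adjusted p = 0.0494) and Parp1 (-0.59 ± 0.09, adjusted p = 0.00175). Xrcc5 was higher (0.42 ± 0.08, adjusted p = 0.0123). The median over the 19 recombination and Fanconi genes was -0.25, over the 14 mismatch, base excision and end joining genes -0.16 and over all genes tested 0.00. Of the proliferation markers 3 of 16 were lower (median -0.23), and their part was not tested. All 5 fibroblast markers tested stood above their parental level in KD cells in DMSO and passed (median 0.50), and 3 of the 5 were higher under largazole (median 0.68). The 6 fibroblast markers listed summed to 2891 and 2884 CPM in parental and 3926 and 4002 CPM in KD cells with DMSO, and to 3177 and 3239 CPM and 3545 and 4059 CPM with largazole, with Lum at or near 0. The part of these markers in the knockdown results was not tested. The calls depended on single libraries. With each library left out in turn, the median over the 37 genes stayed between -0.27 and -0.21. Fewer of the 37, and fewer of all genes tested, passed without any 1 DMSO or parental largazole library. More of both passed without either KD largazole library. Parp1 was the 1 gene that passed in each of these fits.

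Under largazole most recombination genes stood lower in KD than in parental cells. Among largazole libraries 24 of 37 genes were lower and 1 was higher in KD than in parental cells, where 18.3% of all genes tested passed, 9.81% lower and 8.51% higher. This held for 15 of 19 recombination and Fanconi genes (median -0.76), 3 of 4 kinases, Msh6, 4 of 7 base excision genes (median -0.48) and 1 of 6 end joining genes (median -0.01). Over all genes tested the median was 0.00. Fignl1 had the largest fall of its role, at -1.14 ± 0.10 (adjusted p = 8.6e-05), followed by Exo1 at -1.02 ± 0.14 (adjusted p = 0.00126), Rad51ap1 at -1.01 ± 0.20 (adjusted p = 0.00792) and Rad54l at -1.0 ± 0.15 (adjusted p = 0.00159). The kinase gene Chek1 had a value of -1.04 ± 0.13 (adjusted p = 0.000708). Ung had the lowest value of all, at -1.67 ± 0.27 (adjusted p = 0.00273). Rad51c, Xrcc3, Fanci and Fancm did not pass, with values of -0.19, -0.82, -0.43 and -0.50. Xrcc5 was again the higher gene, at 0.47 ± 0.08 (adjusted p = 0.00469), while its partner Xrcc6 was lower at -0.39 ± 0.08 (adjusted p = 0.00869). Neil3 stood higher in KD than in parental largazole libraries, at 0.69 ± 0.27, and did not pass (adjusted p = 0.104).

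The 5 genes lower in KD cells in DMSO were also lower under largazole. Of the proliferation markers 14 of 16 were lower in KD than in parental cells under largazole (median -0.59), and their part was not tested. Without parental largazole replicate 1 or 2 the median over the members was -0.6 or -0.52, against -0.57 with all libraries. That of recombination and Fanconi genes was -0.78 or -0.7, against -0.76. That of mismatch, base excision and end joining genes was -0.29 or -0.21, against -0.31. Fewer members, and fewer of all genes tested, passed in these fits. Without parental largazole replicate 1 the calls of Bard1, Rad51ap1, Rad54b, Xrcc2, Fancb, Fancd2, Chek2, Atr, Ogg1, Apex1 and Xrcc6 were lost (adjusted p = 0.0593 to 0.247). Without parental largazole replicate 2 those of Bard1, Brip1, Palb2, Xrcc2, Blm, Fanca, Fancb, Fancd2, Chek2, Atr, Msh6, Ogg1 and Xrcc6 were lost (adjusted p = 0.053 to 0.308). Bard1, Palb2, Fanca, Fancd2, Chek2, Atr and Ogg1 also missed the threshold without either parental DMSO library (adjusted p = 0.0517 to 0.0906). Bard1, Fanca and Chek2 missed it without either KD DMSO library, and Fancd2 without KD DMSO replicate 2 (adjusted p = 0.0555 to 0.0735). Fanca and Fancd2 missed it without KD largazole replicate 1 (adjusted p = 0.0689 and 0.0604). With KD largazole replicate 2 left out Bard1 and Chek2 were lost (adjusted p = 0.102 and 0.0955), and Xrcc3, Fanci, Fancm, Atm and Xrcc4 newly passed (adjusted p = 0.00769 to 0.0269). Brca1, Brca2, Rad54l, Fignl1, Exo1, Chek1, Ung, Parp1 and Xrcc5 passed whichever library was left out.

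**Figure D4:**
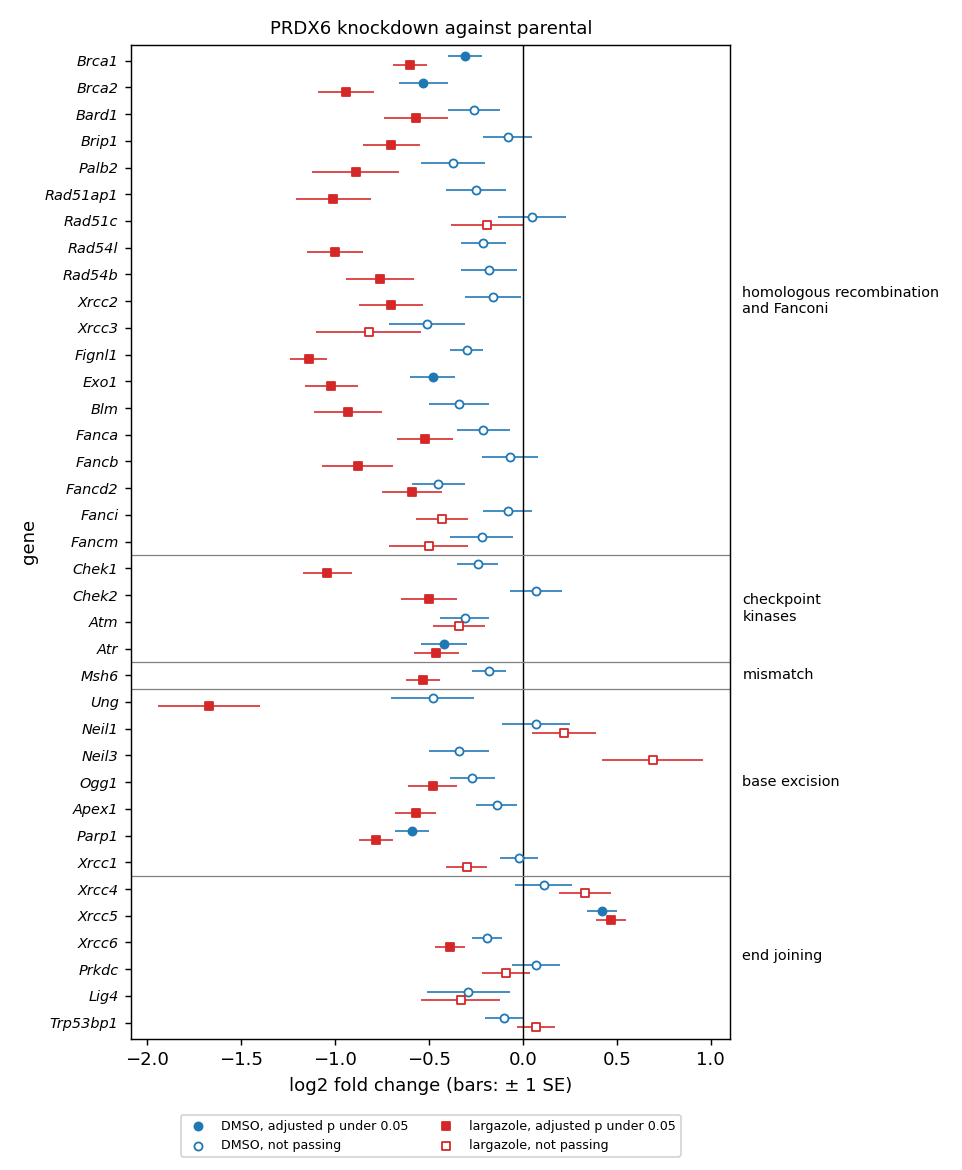
Log2 fold change of KD against parental cells for each of the 37 genes, in DMSO (circles) and under largazole (squares), with bars of 1 SE and filled symbols where the adjusted p was under 0.05. Filled squares run down the recombination and Fanconi rows between -0.52 and -1.14, and Xrcc5 is filled on the right of 0 in both conditions.

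The fall with largazole was larger in KD than in parental cells for Fignl1. The difference between the log2 fold changes was -0.84 ± 0.13 (adjusted p = 0.0402, interaction term), and Fignl1 was the 1 gene of the 37 to pass, where 0.208% of all genes tested passed, 0.176% lower and 0.032% higher. All 19 recombination and Fanconi genes had a negative difference, with a median of -0.52 against -0.03 over all genes tested. By edgeR 10 of the 19 had an unadjusted p under 0.05. Of the 12517 genes tested, 6905 had a negative difference and 1087 had an unadjusted p under 0.05. For Rad54l the difference was -0.79 ± 0.19 (adjusted p = 0.172) and for Chek1 -0.80 ± 0.17 (adjusted p = 0.14). None of the 14 mismatch, base excision and end joining genes passed by edgeR or DESeq2, 4 had an unadjusted p under 0.05 in each, and their median was -0.17. The extremes of the 37 lay in base excision, Ung at -1.19 ± 0.36 (adjusted p = 0.33) and Neil3 at 1.03 ± 0.31 (adjusted p = 0.345). Mcm6 passed among the 16 proliferation markers, at -0.61, and their median was -0.43. The adjusted p of Fignl1 was 0.166 to 0.473 without any 1 of the 4 DMSO libraries or the 2 parental largazole libraries. With KD largazole replicate 1 left out Chek1 passed (adjusted p = 0.0333), and with KD largazole replicate 2 left out Blm and Fancb did (adjusted p = 0.0282 and 0.0411). In these fits 3.35% and 3.58% of all genes tested passed.

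Other genes of these pathways were read from a wider list of 88 names, of which 85 matched and 84 were tested. With largazole 43 of the 84 fell and 4 rose in parental cells (median -0.41), and 52 fell and 6 rose in KD cells (median -0.64). Over all genes tested 49.6% passed in parental and 48.2% in KD cells. Between genotypes 5 of the 84 were lower in KD cells in DMSO and 23 under largazole, and none was higher. Over all genes tested 4.02% were lower and 7.01% higher in DMSO, and 9.81% were lower and 8.51% higher under largazole. Of 20 further checkpoint genes 16 fell in parental and 20 in KD cells, and 2 and 13 were lower with the knockdown in DMSO and under largazole. H2afx, the histone variant phosphorylated at breaks, changed by -1.69 and -2.12 with largazole in parental and KD cells, Clspn, which links ATR to CHEK1, by -1.50 and -1.90, and the ATR activator Topbp1 by -1.07 and -1.53. Of 35 further recombination and Fanconi genes 15 fell and 1 rose in parental cells, with a median of -0.27, and 18 fell and 2 rose in KD cells, with a median of -0.55. These medians lie closer to 0 than those of the 19 genes described here. Among the 35 were the nuclease gene Eme1 (-1.34 and -1.51), the junction resolvase gene Gen1 (-0.78 and -1.51) and Rpa2, a subunit of the protein that coats single-stranded DNA (-0.77 and -1.45). Of 29 further mismatch, base excision and end joining genes 12 fell and 3 rose in parental cells, with a median of -0.34. In KD cells 14 fell and 4 rose, with a median of -0.45. The medians of the 35 and of these 29 genes lay closer together than those of the members in both genotypes. In parental cells their order was opposite to that of the members, with -0.27 for the 35 against -0.34 for the 29.

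Of 6 further mismatch genes 2 fell in parental and 5 in KD cells. Pms1 and Pms2 passed in KD cells at -1.04 and -0.67. Of 15 further base excision genes 6 fell in each genotype, and 2 rose in parental and 3 in KD cells. Over all genes tested 22.7% fell and 26.9% rose in parental cells, and 23.2% fell and 25.0% rose in KD cells. The flap endonuclease gene Fen1 changed by -1.09 and -1.94, and it passed in the difference between genotypes at -0.85 ± 0.12 (adjusted p = 0.029). The ligase gene Lig1 changed by -1.54 and -1.64. Mutyh, a glycosylase gene, fell with largazole in parental cells, at -0.78, and was lower in KD cells in DMSO at -0.91. Of 8 further end joining genes 4 fell and 1 rose in parental cells, and 3 fell and 1 rose in KD cells. Polq, the polymerase of an alternative joining route, changed by -0.90 and -1.08, Aplf by -0.75 and -0.92, and Fam35a, a subunit of shieldin, rose by 0.67 and 0.73.

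In the annotation 15 of the 37 genes share exon sequence with another gene, among them Brca2, Rad54l, Fancd2, Fanci, Msh6, Parp1, Xrcc4 and Xrcc6. Rad54b does so with Fsbp on the same strand. The sources used here do not say whether the counting used strand, so reads of such pairs may not be told apart.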

How the data were processed

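Polyadenylated RNA of 8 libraries was measured. Estimated counts, unnormalized, were deposited for each gene symbol, and the genome build was mm10 per the submitters' processing notes. The sources used here do not name the aligner, the counter or its strand setting. The counts were rounded and tested with edgeR 4.0.16 (R 4.3.3): TMM scaling, filterByExpr (minimum count 10, minimum total 15), 1 mean per group over all 8 libraries, and the two-sided quasi-likelihood F test, adjusted by Benjamini-Hochberg over 12517 genes at 0.05. SE was taken as the absolute fold change (log2) over the root of F. The difference between responses is the interaction term. The members and lists were chosen with earlier results of these data known. Named were all members, up to 3 passing genes per role of the wider list, Prdx6, Rn45s and markers. Symbols were matched to GENCODE M21 on GRCm38 for exons and lengths. Alternatives were RLE, upper-quartile and total-count scaling, no or a stricter filter, DESeq2 1.42.0, limma-voom (limma 3.58.1), an older quasi-likelihood method, fits of only the libraries compared, a replicate block and leaving out each library. Scripts were tested on simulated data. Some genes that the rule names are not reported here.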

Additional observations from a re-analysis of the deposited data

Results flagged for a closer look

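The response of Fignl1 to largazole differed between the genotypes by the interaction test of edgeR, with a difference of -0.84 on the log2 scale (KD minus parental).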

How the results depend on the processing

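Of 3293 member values under alternatives, 3106 stayed on the same side of the threshold, 134 no longer passed and 53 newly passed. Direction was compared only for values that passed in the main or the alternative fit, and 0 of these reversed. With only the libraries compared, 10 members and 6 recombination and Fanconi genes passed for the knockdown in DMSO (6 and 3 in the fit of all libraries), where 28.1% of all genes passed, and 13 and 7 passed under largazole (25 and 15), where 7.79% did. Limma-voom gave 5 recombination and Fanconi genes in DMSO. In the difference between responses 0 of the members passed with library totals only, without the filter or by limma-voom. In the edgeR fit 1 passed, and 1 by DESeq2. An unadjusted p under 0.05 was held by 15, 15 and 16 members with library totals only, without the filter and by limma-voom. It was held by 16 in the edgeR fit and 13 by DESeq2. The causes were not tested. Leaving out 1 library at a time gave 4 to 10 mismatch, base excision and end joining genes for largazole in parental cells. For the knockdown in DMSO it gave 1 to 10 members, 0 to 6 recombination and Fanconi genes and 1 to 2 of the other 3 pathways. Under largazole it gave 12 to 28, 7 to 17 and 4 to 8, and for the difference 0 to 3 members and 0 to 3 recombination and Fanconi genes. A group left with 1 library is assumed to vary like the others. With the replicate number as a block, 5 recombination and Fanconi genes passed for the knockdown in DMSO, with Fignl1 and Fancd2 added (adjusted p = 0.032 and 0.0229). Atr passed with largazole in both genotypes (0.0306 and 0.0192), Fanci and Xrcc4 in parental cells (0.0341 and 0.0409), and Fanci and Atm for the knockdown under largazole (0.0339 and 0.0426). No member call was lost under the block. Same-numbered deviations correlated at 0.146 to 0.364 in 4 of 6 pairs of groups and at 0.00167 and -0.00767 in the others. No label says that a number marks a shared batch, so pairing was not assumed. The precision of the lowest members is limited by counts of 17 to 50 in some libraries.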
